A study of Mus musculus with 18 samples.

Results

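A group of 9 genes of lysosomal antigen processing was followed in mouse pancreatic alpha, beta and delta cells with and without interferon gamma (IFNγ), an inflammatory cytokine made by lymphocytes. The 9 genes were chosen by name, for their place in lysosomal protein breakdown, out of 55487 measured genes: the cathepsins Ctss, Ctsb, Ctsl, Ctsh, Ctsz and Ctsd, the protease legumain (Lgmn), the thiol reductase GILT (Ifi30) and the cathepsin inhibitor cystatin C (Cst3). Of these, 8 passed the filter on low counts, which 17338 genes passed, and Ctss did not. Islets came from C57BL/6JRj male mice aged 12 weeks and were cultured whole for 20 h with IFNγ at 5 ng/mL, or without it (control). The 6 groups, IFNγ and control for each of alpha, beta and delta cells, held 3 libraries each, 18 in all. The islets were dissociated after culture, and the cells were sorted as Epcam+ and negative for CD45, TER119 and CD31, alpha cells being CD24-low and CD71-, beta cells CD24-low and CD71+, and delta cells CD24-high. The populations are therefore defined by surface markers, and none carries a genetic change.

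Lysosomes break down proteins with a set of proteases that overlap in what they cut. Cathepsins B, H, L, S and Z are cysteine proteases of the papain family, cathepsin D is an aspartic protease, and legumain cuts after asparagine. In antigen-presenting cells such enzymes cut the invariant chain, encoded by Cd74, in steps until MHC class II molecules can take up peptides, with cathepsin S acting in dendritic cells and B cells and cathepsin L in the mouse thymic epithelium. GILT opens disulfide bonds of proteins in the same compartment, and cystatin C, a secreted protein, blocks cysteine cathepsins. In pancreatic endocrine cells lysosomes also take up and degrade old secretory granules. IFNγ signalling acts on promoters at GAS sites and, through IRF1, at ISRE sites, while TFEB and its relatives drive lysosomal genes through CLEAR elements, whose core is an E-box.

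Promoter windows from 250 bases before to 50 bases after a start were found for 7 of the 9 genes (8 windows, RefSeq, GRCm38.p6), all but Ctsb and Ctsh. They were searched on both strands for the GAS motif TTCNNNGAA, the ISRE core, which is GAAA, any 2 bases and GAAA again, and the E-box core CACGTG. No window of these genes held the GAS motif, which was in 8.30% of 32851 promoters of the same length. The ISRE core was in the Ctss window alone, 21 bases before the start, against 3.44% of all promoters. The E-box core was in windows of 4 genes, Ctsd, Ctsl, Lgmn and Ifi30, against 7.15% of all promoters. That share counts windows and not genes. Of the 2 Lgmn windows only the one farther into the gene held it. The Ctsd window held it at 245 and 98 bases before the start. A match describes letters in the window and not a bound site. Printed here are the window with the ISRE core, the one with a pair of E-box cores and that of Ifi30, whose human counterpart is named for its induction by interferon. Each runs 5′ to 3′ on the strand of its gene, with the matches in capitals.
Ctss, chr3:95526536-95526835 (+): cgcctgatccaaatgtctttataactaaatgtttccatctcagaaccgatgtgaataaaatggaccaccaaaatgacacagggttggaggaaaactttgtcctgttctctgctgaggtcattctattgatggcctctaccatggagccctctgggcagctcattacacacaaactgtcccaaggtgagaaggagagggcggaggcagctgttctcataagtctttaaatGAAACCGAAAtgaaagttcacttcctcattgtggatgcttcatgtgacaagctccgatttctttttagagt
Ctsd, chr7:142387778-142388077 (-): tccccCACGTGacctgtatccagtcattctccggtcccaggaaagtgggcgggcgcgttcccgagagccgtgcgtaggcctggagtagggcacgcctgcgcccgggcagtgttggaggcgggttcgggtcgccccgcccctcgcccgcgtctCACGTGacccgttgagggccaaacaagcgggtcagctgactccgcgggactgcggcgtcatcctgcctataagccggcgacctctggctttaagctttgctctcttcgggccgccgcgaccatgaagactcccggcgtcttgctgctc
Ifi30, chr8:70766614-70766913 (-): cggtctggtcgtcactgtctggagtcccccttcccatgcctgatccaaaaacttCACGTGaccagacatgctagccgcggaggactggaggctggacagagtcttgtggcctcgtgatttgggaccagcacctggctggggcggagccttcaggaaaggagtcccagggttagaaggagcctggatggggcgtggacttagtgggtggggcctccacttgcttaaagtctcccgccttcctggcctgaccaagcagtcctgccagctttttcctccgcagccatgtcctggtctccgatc

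Library totals ranged from 6128845 to 11531734 expected counts, with a median of 8697388. Levels are given as CPM, which are counts relative to library size after scaling the libraries to each other and compare a gene between libraries, and as TPM, which also correct for gene length and compare genes with each other. The sorted populations carried their hormones: Gcg (glucagon) lay between 74630 and 111600 CPM in alpha IFNγ libraries and between 78060 and 117500 CPM in alpha control libraries, Ins2 (insulin) between 17510 and 30180 CPM in beta IFNγ libraries and between 25350 and 29880 CPM in beta control libraries, and Sst (somatostatin) between 9563 and 14820 CPM in delta IFNγ libraries and between 14710 and 35920 CPM in delta control libraries. Cd24a, which encodes the CD24 of the sort gate, was at least 615 CPM in every delta library and at most 7.55 CPM in every other library. Acinar markers summed to 401 to 1502 CPM in delta IFNγ libraries and 990 to 2240 CPM in delta control libraries, against at most 140.1 CPM in beta IFNγ, alpha IFNγ and alpha control libraries, while beta control libraries held 1909, 69.2 and 2.59 CPM. A set of 3 libraries stood apart from the others of their groups. Alpha IFNγ 2 had a balance between AT-rich and GC-rich genes of -0.54 on the log2 scale, against 0.99 and 0.85 in the other alpha IFNγ libraries and -0.74 to -0.46 in alpha controls. Delta control 3 held the most Gcg of any delta library (2262 CPM) and had a GC balance of 0.84, against -0.10 and -0.07 in the other delta controls and 0.43 to 0.86 in delta IFNγ libraries. So the balance moved with treatment in delta cells too, but for this control. Lastly, the file name of beta control 3 has papain in the place where the remaining beta file names have CD71. The file names carried 9 dates, 5 libraries were alone on their date, and delta cells had no date in common between IFNγ and control, so that date and treatment cannot be told apart there.

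The treatment was visible in every IFNγ library. Irf1, a transcription factor gene induced by IFNγ, averaged 139 ± 13.3 CPM in alpha IFNγ libraries against 37.8 ± 3.74 CPM in alpha controls, 189.9 ± 41.9 against 37.97 ± 4.87 CPM in beta cells and 180.0 ± 52.5 against 37.3 ± 5.82 CPM in delta cells (SD, n = 3 each). On the log2 scale it rose by 1.88, 2.32 and 2.27 (adjusted p = 2.08e-05, 1.16e-06 and 1.42e-06). Cd74, the invariant chain that the proteases cut, averaged 45.7 CPM in alpha IFNγ libraries against 0.824 CPM in alpha controls, 49.8 against 0.0982 CPM (2 counts) in beta cells and 239 against 0.676 CPM in delta cells. Of 10 listed MHC class II genes 7 were tested, and 5 of them rose in alpha cells, 6 in beta cells and 6 in delta cells. Ciita, the master regulator of class II genes, rose by 3.05 (SE 0.57, adjusted p = 0.00499) in beta cells and by 3.66 (SE 0.50, adjusted p = 0.000151) in delta cells, and averaged 5.81 ± 1.01 CPM in alpha IFNγ libraries against 1.33 ± 0.576 CPM in alpha controls, which did not pass the threshold. The lysosomal processing genes were measured against that background.

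Cathepsin S, the invariant chain protease of antigen-presenting cells, was nearly without reads in all 6 groups. Ctss (ENSMUSG00000038642, GRCm38 chromosome 3, 95526786 to 95556403, plus strand) had 0, 1 and 0 counts in alpha IFNγ libraries and 0, 1 and 0 in alpha controls. In beta cells it had 2, 3 and 0 counts in IFNγ libraries and 0 in each control, and in delta cells 1, 0 and 2 counts in IFNγ libraries against 1, 2 and 0 in controls. Only beta IFNγ libraries reached 2 of 3 libraries with more than 1 count. Over all libraries these were 13 counts, or 0.0830 CPM of the unscaled totals (95% Poisson interval 0.0442 to 0.142), and 10 of 18 libraries had 0. The 5 counts of beta IFNγ libraries came to 0.188 CPM of their totals (95% Poisson interval 0.0611 to 0.439), against 0 in beta controls, which allows up to 0.125 CPM over the group. These intervals and limits cover counting error only. Fitted without the filter, Ctss in beta cells had an adjusted p = 1.0 in edgeR, so a difference was not detectable at this depth. Its level per length was at most 0.16 TPM in any library, while the 8 other genes were all read.

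**Figure D1:**
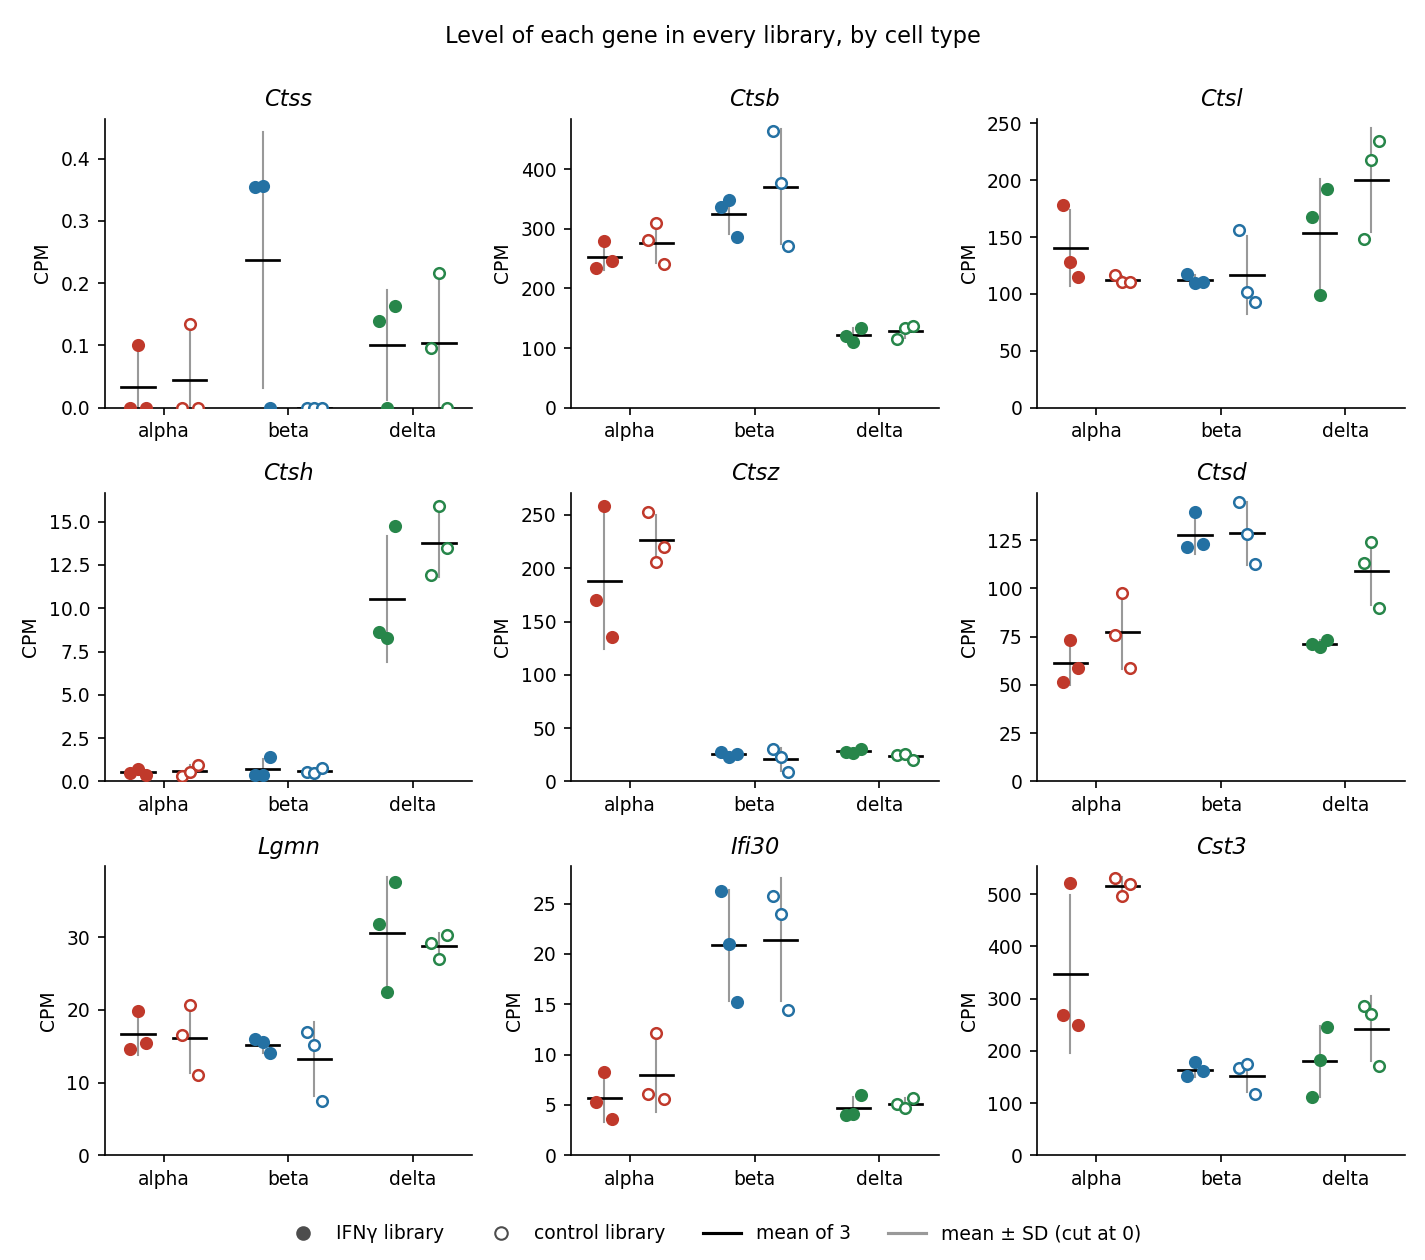
Level of each of the 9 genes in CPM (vertical axes, linear, each with its own range) in all 18 libraries, by cell type. Filled points are IFNγ libraries and open points control libraries, black lines are means of 3 libraries and grey lines the mean ± SD, ended at 0. Ctsh was at 8.28 CPM or more in all 6 delta libraries and at most 1.40 CPM in the other 12, and Ctsz was at 135 CPM or more in the 6 alpha libraries and at most 30.5 CPM in the other 12.

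None of the 8 tested genes passed the threshold (adjusted p under 0.05 in edgeR's quasi-likelihood test, Benjamini-Hochberg over all tested genes) for IFNγ against control in any cell type. Among all tested genes IFNγ changed 0.975% in alpha cells, 1.06% in beta cells and 1.39% in delta cells, and in the average over the 3 cell types 2.91%, where none of the 8 passed either. The alpha share rested on alpha IFNγ 2: without that library 1798 genes were higher and 1959 lower of 18038 tested in alpha cells, in place of 163 and 6, with Cst3 alone of the 8 past the threshold, and in the average 709 were higher and 909 lower, in place of 388 and 116, with Ctsd alone. At an unadjusted p under 0.05 there was no gene of the 8 in alpha or beta cells. There was 1, Ctsd, in delta cells and in the average. Of 17338 tested genes, 3753 were under it in alpha cells, 740 in beta cells, 2021 in delta cells and 2905 in the average. DESeq2 called none of the 8 in any of these 4 comparisons. Their median log2 change was -0.24 in alpha cells, 0.05 in beta cells and -0.25 in delta cells, beside -0.01, 0 and -0.05 over all tested genes. The 95% intervals cover the spread between libraries in a fit without date or GC terms, and not the date that moved with treatment in delta cells. They stayed within 2-fold either way for 5 of 8 genes in alpha cells (all but Ctsh, Ifi30 and Cst3), 7 of 8 in beta cells (all but Ctsh), 5 of 8 in delta cells (all but Ctsd, Ctsh and Cst3) and all 8 in the average. The log2 response differed between cell types for none of the 8, as for 0% of all genes in each of these 3 tests. Without alpha IFNγ 2 the test of alpha minus beta cells called 674 genes higher and 701 lower, and still none of the 8. At an unadjusted p under 0.05 lay only Ctsd of the 8, in delta minus beta cells, with -0.60 (adjusted p = 0.885). In that test 821 of the 17338 tested genes were under it. DESeq2 called none of the 8 in these tests.

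**Figure D2:**
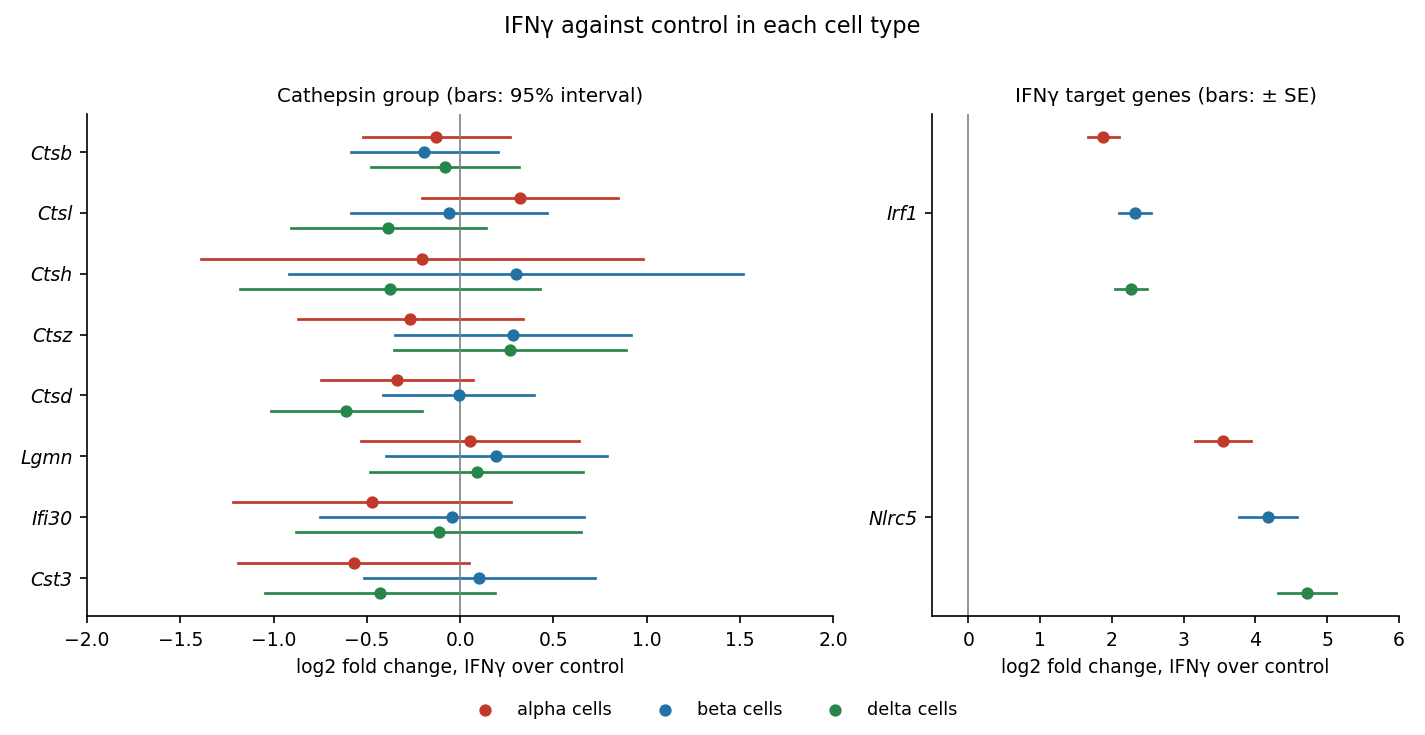
Log2 fold change of IFNγ over control (horizontal axes) in alpha, beta and delta cells. Left, the 8 tested genes with 95% intervals, of which all but that of Ctsd in delta cells include 0. Right, on a wider axis, the IFNγ target genes Irf1 and Nlrc5 with bars of ± SE, which rose by 1.88 to 4.72.

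Among the genes under IFNγ, cathepsin D lay lowest against control in delta cells. Ctsd (ENSMUSG00000007891, chromosome 7, 142375911 to 142388038, minus strand) had 71.0, 69.8 and 73.3 CPM in delta IFNγ libraries against 113, 124 and 89.8 CPM in delta controls. The 2 groups did not overlap, which 7.80% of all genes showed in this direction, and the log2 difference was -0.61 (SE 0.19, adjusted p = 0.194), a fold of 0.655 with a 95% interval of 0.494 to 0.869. In alpha cells Ctsd had 51.5, 73.5 and 59.0 CPM with IFNγ against 76.1, 97.6 and 59.0 CPM in controls, and in beta cells 121, 139 and 123 against 145, 128 and 113 CPM, so that both pairs of groups overlapped. No gene of the 8 was free of overlap in alpha cells (9.59% of all genes higher and 8.96% lower) or in beta cells (6.49% and 4.45%). Averaged over the 3 cell types the log2 difference was -0.32 (SE 0.11, adjusted p = 0.158). The delta value passed the threshold in 1 of 27 alternatives, without the 3 libraries that stood apart (-0.73, adjusted p = 0.0336). Of the delta libraries only delta IFNγ 1 and delta control 3 shared a date with another library. With date as a term the delta value rested on these and was 0.03. With offsets for GC content it was -0.41 in delta cells (adjusted p = 0.254) and 0.04 in alpha cells (adjusted p = 0.959).

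Cystatin C was the most abundant of the genes. Cst3 (ENSMUSG00000027447, chromosome 2, 148871722 to 148875692, minus strand) had 269, 521 and 249.9 CPM in alpha IFNγ libraries against 530, 497 and 518 CPM in alpha controls. Alpha IFNγ 1 and 3 lay far below every control, and alpha IFNγ 2, the library with the differing GC balance, lay among them. The log2 difference was -0.57 (SE 0.29, adjusted p = 0.256), a fold of 0.673 with a 95% interval of 0.439 to 1.03. Without alpha IFNγ 2 it was -0.99 (adjusted p = 0.0225), with GC offsets -0.17 (adjusted p = 0.837), and over 27 alternatives the adjusted p ran from 0.00668 to 0.837. Within the 2 dates that held both treatments it was -0.03 and -0.99. The part of GC balance in this difference was not tested beyond the offsets. Delta cells had 111, 183 and 246 CPM with IFNγ against 286.5, 269.9 and 171.5 CPM in controls (log2 -0.43, adjusted p = 0.597), and beta cells 151, 179 and 160.5 against 166, 174 and 116 CPM (log2 0.10, adjusted p = 1). Both overlapped.

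Ifi30, named for interferon, did not pass the threshold in any cell type. The gene (ENSMUSG00000031838, chromosome 8, 70762774 to 70766663, minus strand, annotated in GENCODE M21 as a processed transcript) had 26.3, 21.0 and 15.3 CPM in beta IFNγ libraries against 25.8, 24 and 14.5 CPM in beta controls. The log2 difference was -0.04, a fold of 0.970 with a 95% interval of 0.595 to 1.58. Alpha cells had 5.26, 8.32 and 3.58 CPM with IFNγ against 6.10, 12.2 and 5.56 CPM in controls (log2 -0.47, SE 0.35, adjusted p = 0.429), and delta cells 4.04, 4.08 and 5.98 against 5.06, 4.65 and 5.71 CPM (log2 -0.12). In every cell type the libraries of both treatments overlapped. An overlapping gene on the other strand, 6330537M06Rik, had a mean count of 7.83, and although the library chemistry marks strand, the sources do not state whether reads were counted by it.

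The remaining proteases did not pass the threshold for IFNγ either. Cathepsin Z, a carboxypeptidase, was the other gene whose libraries did not overlap in delta cells: Ctsz (ENSMUSG00000016256, chromosome 2, 174427493 to 174439039, minus strand) had 27.3, 26.8 and 30.5 CPM with IFNγ against 24.5, 25.3 and 20.5 CPM in controls. The log2 difference was 0.27 (SE 0.30, adjusted p = 0.769), and 7.71% of all genes did not overlap in this direction. In alpha cells, where it was abundant, Ctsz had 170.5, 259 and 135 CPM with IFNγ against 252, 206 and 220 CPM in controls (log2 -0.27, adjusted p = 0.591), and this value was 0.24 with GC offsets and -0.56 (adjusted p = 0.0168) without the 3 libraries that stood apart. Cathepsin B, an endopeptidase that also trims carboxyl ends, had 337, 349 and 287 CPM in beta IFNγ libraries against 464, 377 and 271 CPM in beta controls (log2 -0.19, adjusted p = 1). Log2 differences of Ctsb (ENSMUSG00000021939, chromosome 14, 63122462 to 63145923, plus strand) were -0.13 in alpha cells and -0.08 in delta cells. Ctsl (ENSMUSG00000021477, chromosome 13, 64359337 to 64370890, minus strand), an endopeptidase, differed by 0.32 in alpha cells, -0.06 in beta cells and -0.38 in delta cells (adjusted p = 0.447, 1 and 0.576). With date as a term its delta value, which then rested on delta IFNγ 1 and delta control 3, was -1.16. Lgmn (ENSMUSG00000021190, chromosome 12, 102394084 to 102439813, minus strand) differed by 0.05, 0.19 and 0.09. Cathepsin H, an aminopeptidase encoded by Ctsh (ENSMUSG00000032359, chromosome 9, 90054152 to 90076089, plus strand), had 8.63, 8.28 and 14.8 CPM in delta IFNγ libraries against 11.9, 15.9 and 13.5 CPM in delta controls (log2 -0.38, SE 0.38, adjusted p = 0.741), and its interval reached past 2-fold in all 3 cell types. Exons of Ctsb overlap those of Fdft1, with a mean count of 513, and those of Ctsz overlap Nelfcd, with a mean count of 202, in each case on the other strand, so their counts carry that uncertainty.

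The cell types differed far more than the treatments. Control cells separate the types without IFNγ: 4 of the 8 genes passed the threshold between alpha and beta cells, where 19.7% of all genes did, 5 between delta and beta cells (20.5%) and 6 between delta and alpha cells (19.7%). In alpha over beta cells 2 were higher and 2 lower, as were 9.57% and 10.1% of all genes. Delta over beta cells gave 3 higher and 2 lower (11.4% and 9.11%), and delta over alpha cells 3 higher and 3 lower (10.9% and 8.77%). Counting genes whose libraries did not overlap at all, there were 2 higher and 2 lower in alpha over beta cells (20.8% and 19.5% of all genes), 2 and 2 in delta over beta cells (20.2% and 17%) and 3 and 3 in delta over alpha cells (21.6% and 19.9%). No test compared these counts with the background.  Each pair of these comparisons shares the libraries of 1 cell type. In sorted bulk samples, fewer cells that express a gene and less of its RNA per cell cannot be told apart.

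Cathepsin Z was highest in alpha cells. Control libraries had 252, 206 and 220 CPM of Ctsz in alpha cells against 30.1, 23.4 and 9.13 CPM in beta cells, and no library of the 2 groups overlapped. The level was higher in alpha cells by 3.43 on the log2 scale (SE 0.32, adjusted p = 6.51e-07), a fold of 10.8 with a 95% interval of 6.79 to 17.2. Against the 24.5, 25.3 and 20.5 CPM of delta controls the log2 difference, delta over alpha, was -3.27 (SE 0.32, adjusted p = 6.03e-07). Both calls held in all 26 alternatives. On the dates shared by alpha and beta controls the difference was 3.05 and 3.11, and on the date shared by delta and alpha controls -3.30.

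Cathepsin H was highest in delta cells. In human, CTSH lies in a region linked to type 1 diabetes. Delta controls had 11.9, 15.9 and 13.5 CPM of Ctsh, against 0.291, 0.535 and 0.962 CPM in alpha controls and 0.570, 0.468 and 0.761 CPM in beta controls. Delta cells were thus higher than beta cells by 4.51 on the log2 scale (SE 0.50, adjusted p = 2.14e-06), a fold of 22.7 with a 95% interval of 11.02 to 46.9, and higher than alpha cells by 4.45 (SE 0.49, adjusted p = 2.74e-06). Both calls held in all 26 alternatives. On the single date with controls of all 3 types (with delta control 3) the values were 3.85 over beta and 3.76 over alpha cells. Delta libraries also held more acinar RNA (above) but the lowest sums over 8 duct cell markers, 258 to 423 CPM against 776 to 1423 CPM in alpha and 430.3 to 633 CPM in beta libraries. These sums were mostly Spp1 (617 to 1259 CPM in alpha libraries) and Krt7 (at least 259.5 CPM in beta libraries). In delta libraries Spp1 was at most 198.7 CPM and Krt7 at most 175.7 CPM. Sox9 ran the other way, with 17.1 to 34.5 CPM in delta libraries against at most 0.585 CPM in the others. Krt19 (1.19 to 7.27 CPM), Tff2 (1.78 to 4.775 CPM) and Cftr (0.191 to 3.76 CPM) were also mostly higher in delta libraries. Outside delta cells Krt19 reached 1.57 CPM, Tff2 4.56 CPM (beta control 1) and Cftr 0.345 CPM. The sums therefore do not rank the cell types by duct cell RNA. Beta control 1, whose acinar sum of 1909 CPM lay within the range of delta controls, had 0.570 CPM of Ctsh (4 counts). The part of acinar and duct cell RNA in the difference was not tested.

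Legumain and cathepsin L were also higher in delta cells, by less. Lgmn had 29.2, 26.9 and 30.3 CPM in delta controls, above all alpha controls (16.6, 20.6 and 11.01 CPM) and all beta controls (16.95, 15.2 and 7.45 CPM). The log2 difference was 1.12 over beta cells (SE 0.28, adjusted p = 0.00704) and 0.85 over alpha cells (SE 0.28, adjusted p = 0.0382), past the threshold in 25 and 19 of 26 alternatives. Ctsl had 148, 218 and 234 CPM in delta controls, 116, 110.5 and 110.4 CPM in alpha controls and 156, 102 and 92.8 CPM in beta controls. The delta and beta libraries of Ctsl overlapped through delta control 1 and beta control 1. The differences were 0.77 over beta cells (SE 0.25, adjusted p = 0.0351) and 0.83 over alpha cells (SE 0.25, adjusted p = 0.0257), each past the threshold in 20 of 26 alternatives. Without delta control 3 Ctsl was at 0.64 over beta cells (adjusted p = 0.120) and at 0.70 over alpha cells (adjusted p = 0.104), and Lgmn at 0.81 over alpha cells (adjusted p = 0.101).

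Cathepsin B was lowest in delta cells of the 3 types. Delta controls had 116, 133 and 137 CPM of Ctsb, against 281, 309.5 and 241 CPM in alpha controls and 464, 377 and 271 CPM in beta controls, and delta libraries lay below all others. The log2 difference was -1.53 against beta cells (SE 0.19, adjusted p = 9.90e-06) and -1.11 against alpha cells (SE 0.19, adjusted p = 0.000347), and both calls held in all 26 alternatives. Between alpha and beta controls it was -0.42 (SE 0.19, adjusted p = 0.132). That value was -0.49 with GC offsets (adjusted p = 0.0303) and -0.60 without beta control 3 (adjusted p = 0.0353).

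GILT was highest in beta cells. Ifi30 in controls was lower in alpha cells (6.10, 12.2 and 5.56 CPM) and in delta cells (5.06, 4.65 and 5.71 CPM) than in beta cells (25.8, 24 and 14.5 CPM), with no library of alpha or delta cells reaching those of beta cells. The log2 difference was -1.43 for alpha over beta (SE 0.35, adjusted p = 0.00644), a fold of 0.370 with a 95% interval of 0.223 to 0.616, and -2.06 for delta over beta (SE 0.36, adjusted p = 0.000315). Both calls held in all 26 alternatives. Ctsd was lower in alpha controls (76.1, 97.6 and 59.0 CPM) than in beta controls (145, 128 and 113 CPM) by 0.73 on the log2 scale (SE 0.19, adjusted p = 0.0116), past the threshold in 24 of 26 alternatives. For delta over alpha controls it was 0.49 (adjusted p = 0.0822), and 0.77 with GC offsets (adjusted p = 0.00130).

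Cystatin C was highest in alpha cells. Cst3 had 530, 497 and 518 CPM in alpha controls against 166, 174 and 116 CPM in beta controls, with no overlap, a log2 difference of 1.76 (SE 0.30, adjusted p = 0.000352) and a fold of 3.38 with a 95% interval of 2.18 to 5.25. This call held in all 26 alternatives. Delta controls, with 286.5, 269.9 and 171.5 CPM, lay below alpha controls by 1.09 on the log2 scale (SE 0.30, adjusted p = 0.0143), and without delta control 3 the difference was -0.89 (adjusted p = 0.0780). For delta over beta cells it was 0.67 (adjusted p = 0.124), and 0.81 with GC offsets (adjusted p = 0.0112).

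The cell type differences were measured a second time in the IFNγ-treated libraries, a comparison added after the control values were seen. These libraries are separate from the controls, though both came from one fit. Some treated and control libraries shared a date, and libraries of the same date deviated together (below). The treated values are therefore not an independent repeat. Of the 8 genes 4 passed the threshold between treated alpha and beta cells (27.1% of all genes), 5 between delta and beta cells (36.4%) and 5 between delta and alpha cells (16%). By direction these were 2 higher and 2 lower (13.8% and 13.3% of all genes), 2 and 3 (18.4% and 18%) and 2 and 3 (8.88% and 7.13%). For alpha over beta these were the 4 of the control comparison in the same direction, Ctsz at 2.88, Cst3 at 1.08, Ctsd at -1.06 and Ifi30 at -1.86 (adjusted p = 2.46e-06, 0.0116, 0.000549 and 0.000718). Without alpha IFNγ 2 Cst3 was at 0.67 (adjusted p = 0.0659). For delta over beta 4 were shared, Ctsh at 3.83, Lgmn at 1.01, Ctsb at -1.41 and Ifi30 at -2.13, while Ctsd at -0.84 (adjusted p = 0.00278) passed in treated cells and Ctsl at 0.45 (adjusted p = 0.170) did not. The Ctsd call was lost with GC offsets (-0.40, adjusted p = 0.0538) and with GC offsets and the replicate block (-0.39, adjusted p = 0.0683). With date as a term, where only delta IFNγ 1 informed the treated delta cells, Ctsd was at -0.59. For delta over alpha 5 were shared, Ctsh at 4.28, Ctsz at -2.74, Ctsb at -1.06, Lgmn at 0.88 and Cst3 at -0.94, and Ctsl was at 0.13 (adjusted p = 0.809). There Cst3 passed in 20 of 26 alternatives and was at -0.53 (adjusted p = 0.240) without alpha IFNγ 2, and Lgmn passed in 21. A gene past the threshold with one treatment and not with the other is not thereby shown to differ in its response, and the test of that difference called none. Ctsh had 8.63, 8.28 and 14.8 CPM in treated delta cells against at most 1.40 CPM in treated beta cells.

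**Figure D3:**
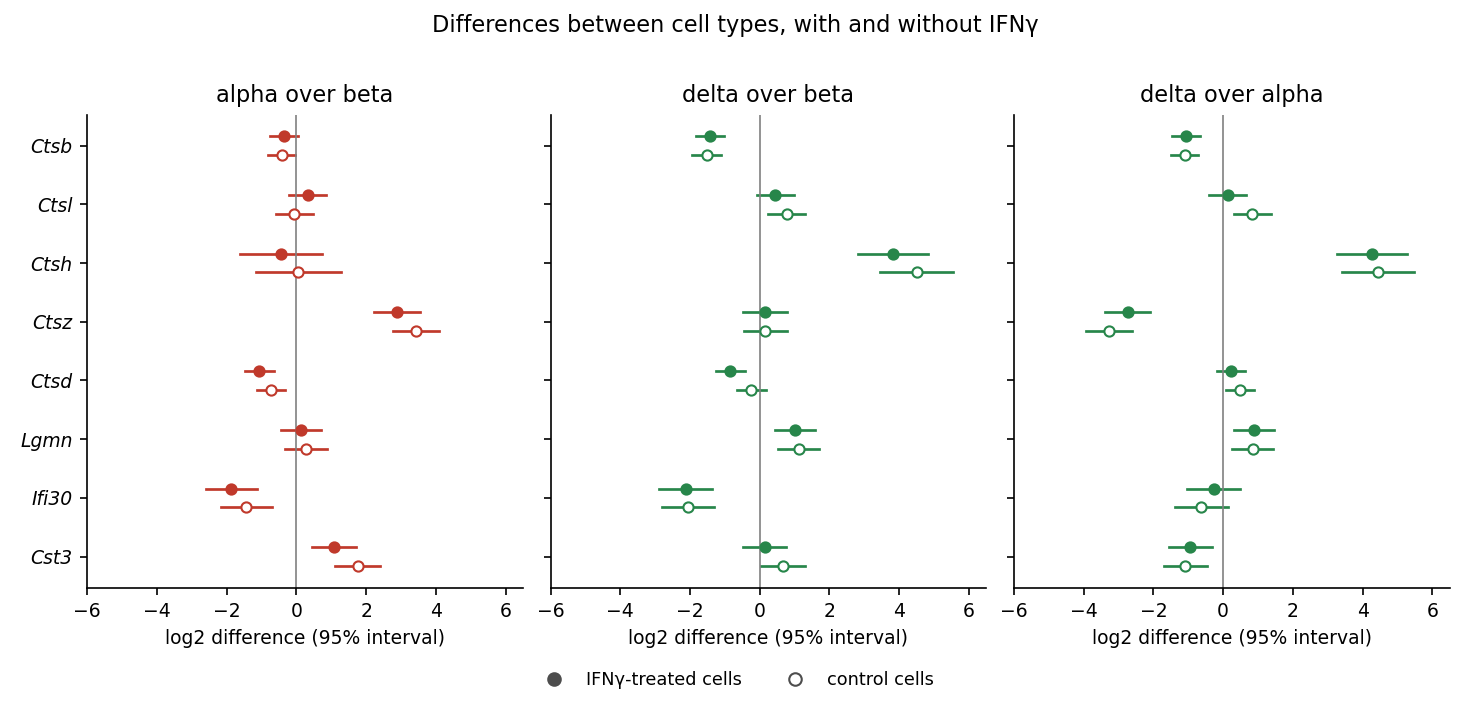
Log2 difference between cell types (horizontal axes, with 95% intervals) for the 8 tested genes, alpha over beta, delta over beta and delta over alpha. Filled points are IFNγ-treated cells and open points control cells. Ctsz in alpha cells and Ctsh in delta cells lie farthest from 0 with and without IFNγ, at 2.74 to 4.51 log2 units in size.

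Ordered by mean level over the 6 groups, most neighbours could not be separated. Ctsh in delta IFNγ libraries (10.6 ± 3.64 CPM) lay above the next group, beta IFNγ (0.703 ± 0.602 CPM), without overlap (SD, n = 3 each). In the same way Ctsz in alpha IFNγ libraries (188 ± 63.6 CPM) lay above delta IFNγ libraries (28.2 ± 2.02 CPM), Lgmn in delta controls (28.8 ± 1.73 CPM) above alpha IFNγ libraries (16.6 ± 2.82 CPM), Ifi30 in beta IFNγ libraries (20.9 ± 5.51 CPM) above alpha controls (7.95 ± 3.68 CPM), and Ctsb in alpha IFNγ libraries (253 ± 22.9 CPM) above delta controls (129 ± 11.3 CPM). For Ctsd, Ctsl and Cst3 every pair of neighbouring groups overlapped. The pairs without overlap were picked after ordering by mean, and no share over all genes is given for them.

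Per length, the make-up of the protease transcripts differed between cell types. Cst3 was the highest of the 9 genes in all 6 groups, with mean levels of 119 to 440 TPM, and Ctss the lowest. Of the summed TPM of the 7 proteases, Ctsz made up 34.2% in alpha IFNγ and 37.5% in alpha control libraries, against 5.61% and 4.45% in beta cells and 8.41% and 4.95% in delta cells. Ctsb made up 28.7% in beta IFNγ and 32.9% in beta control libraries, against 12.7% and 9.48% in delta cells. Ctsl made up 53.4% in delta IFNγ and 62.0% in delta control libraries, and its share was at least 34.4% in every group. The summed level was 226.8 ± 111 TPM in alpha IFNγ and 281 ± 22.2 TPM in alpha control libraries, 199 ± 2.28 and 175 ± 50.5 TPM in beta cells and 120.0 ± 8.77 and 190.5 ± 40.1 TPM in delta cells (SD, n = 3 each). Cst3 per summed TPM of the cysteine proteases was 1.24 ± 0.226 in alpha IFNγ and 1.70 ± 0.0844 in alpha control libraries, 0.804 ± 0.0930 and 0.818 ± 0.1999 in beta cells and 1.14 ± 0.375 and 1.16 ± 0.414 in delta cells. The effective length that divides the counts of Ctsl ran from 640 to 1324 bases between libraries and that of Ctsh from 464 to 2237 bases, so the TPM of these 2 genes moved with it.

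**Figure D4:**
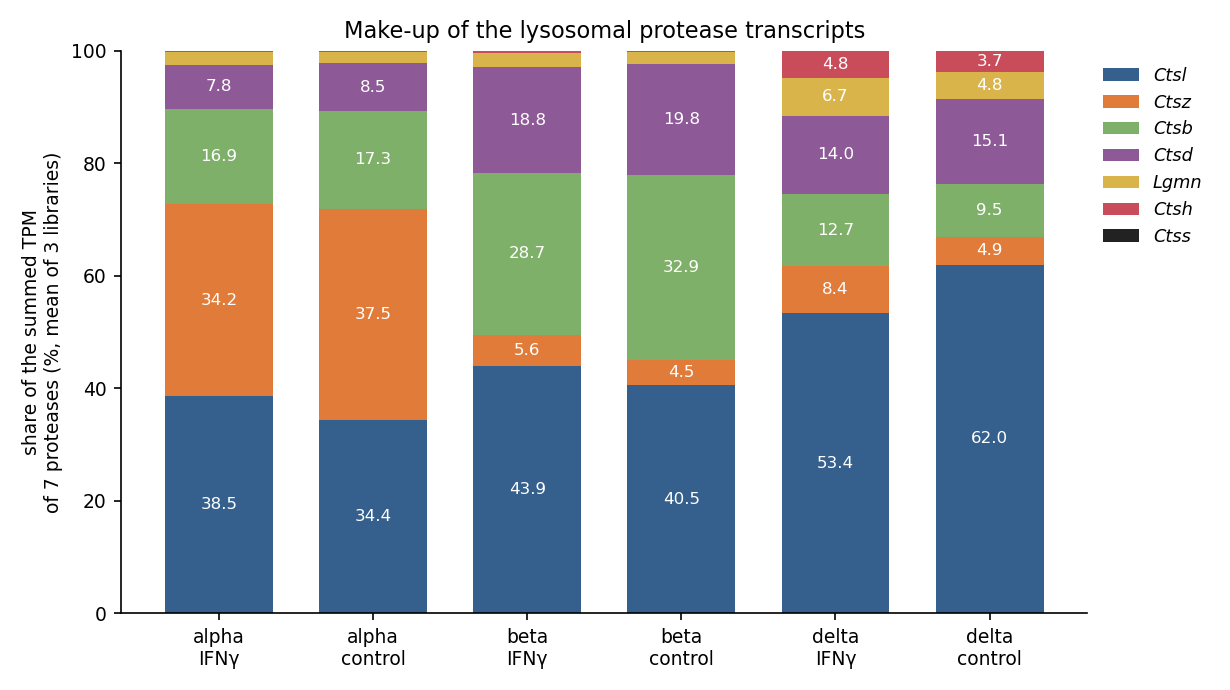
Share of each of 7 lysosomal proteases in their summed TPM (vertical axis, percent, mean of 3 libraries) in the 6 groups, IFNγ left of control for each cell type. Ctsz takes 34.2% and 37.5% in alpha cells and at most 8.41% elsewhere, and Ctsl is the largest part in all groups but alpha control.

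Other lysosomal genes were measured as listed groups. Tested were 4 other cathepsins, 2 other inhibitors, 17 membrane proteins, 32 other soluble hydrolases, 19 subunits and partners of the proton pump (vacuolar ATPase) and 14 sorting and biogenesis genes. For IFNγ the only call within a cell type was Gusb (beta-glucuronidase) in delta cells. Gusb was at 20.3 ± 4.83 CPM with IFNγ against 38.9 ± 3.52 CPM in controls (log2 -0.93, SE 0.21, adjusted p = 0.0295). List medians of the log2 change ran from -0.75 (inhibitors) to -0.11 (membrane proteins) in alpha cells. In beta cells they ran from -0.04 (inhibitors) to 0.25 (cathepsins), and in delta cells from -0.26 (hydrolases) to 0.24 (inhibitors). No intervals were taken for these lists, so the few calls do not bound the changes. In the average over cell types Gusb was lower by 0.53, and Laptm4a, a lysosomal membrane protein, and Ctso, cathepsin O, were higher by 0.47 and 0.43 (adjusted p = 0.0191, 0.0158 and 0.0383). Against control beta cells the called genes of these lists were mostly lower. In alpha against beta cells 9 of 17 membrane proteins, 10 of 32 hydrolases and 7 of 19 pump genes were lower and none was higher. Of all genes 10.1% were lower and 9.57% higher. The median log2 differences of these 3 lists were -0.68, -0.48 and -0.44, beside 0.04 over all tested genes. Examples were Cd63 (148 ± 6.90 against 429.7 ± 79.97 CPM) and the pump subunit Atp6v1a (54.0 ± 7.59 against 178.5 ± 14.3 CPM). Sorl1, a sorting receptor, was at 35.3 ± 16.5 CPM in alpha against 154 ± 9.02 CPM in beta cells, and Tfeb, the only gene of these lists that was higher in alpha cells, at 5.65 ± 2.49 against 2.01 ± 0.560 CPM. In delta against beta cells 9 of 17 membrane proteins were lower and none higher, 8 of 32 hydrolases lower and 2 higher, and 6 of 19 pump genes lower and 1 higher. Of all genes 9.11% were lower and 11.4% higher there. Scpep1, a carboxypeptidase, was at 18.9 ± 3.46 CPM in delta against 54.6 ± 10.3 CPM in beta cells, and Dnase2a, the lysosomal DNase, at 17.5 ± 2.21 against 6.59 ± 0.530 CPM. In delta against alpha cells 8 of 32 hydrolases were higher and 1 lower, 3 of 19 pump genes higher and 1 lower, and membrane and sorting genes 2 higher and 2 lower each. Of all genes 10.9% were higher and 8.77% lower there. Against beta cells the calls of the 8 genes went both ways, while most called genes of these lists were lower. Ctsz and Cst3 in alpha cells and Ctsh, Lgmn and Ctsl in delta cells were higher. Ctsd and Ifi30 in alpha cells and Ctsb and Ifi30 in delta cells were lower. In delta against alpha cells the calls of Ctsh, Lgmn and Ctsl had the direction of most called hydrolases. Those of Ctsb, Ctsz and Cst3 had the other direction. No test compared the 8 genes with the lists, or the lists with all genes.

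The genes whose levels moved most like each member over the 18 libraries were named by the smallest root mean square difference in centred log2 CPM among 12742 genes. The closest were Rpn2 to Ctsd (0.135), Tenm2 to Ctsb (0.189), B230118H07Rik to Ctsl (0.256), Capsl to Lgmn (0.260), Ppt2 to Cst3 (0.260), Eno1 to Ifi30 (0.298), Gm38345 to Ctsh (0.352) and Shroom3 to Ctsz (0.411). The same measure had a median over genes between 0.621 and 1.77, depending on the member. Ppt2 encodes another lysosomal enzyme, and Cln6, the gene next after Eno1 for Ifi30 (0.325), a protein whose loss causes lysosomal storage. Both were picked for this link among the 3 closest genes of each member, and such links were not counted over the others.

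Markers of immune cells, in which several of these genes are abundant, were read beside them. The 16 myeloid markers summed to 22.3 to 29.9 CPM in alpha IFNγ libraries against 5.81 to 9.10 CPM in alpha controls, to 27.7 to 43.0 against 5.62 to 7.12 CPM in beta cells and to 30.2 to 50.2 against 9.14 to 19.03 CPM in delta cells. Most of the IFNγ sum was Mpeg1, at 17.6 to 35.9 CPM in the 9 IFNγ libraries against 0.142 to 1.74 CPM in the 9 controls. C1qa had 1.87 to 5.34 CPM in alpha and beta libraries and 5.01 to 14.1 CPM in delta libraries, and Cd68 had 0.580 to 3.55 CPM in all. The other 13 were at most 1.34 CPM in any library. Among them Tyrobp and Laptm5 had no count in any IFNγ library and at most 0.216 and 0.402 CPM in controls, Adgre1 was at most 0.0820 CPM, Lyz2 at most 0.278 CPM and Ptprc, which encodes the CD45 gated against, at most 0.418 CPM. Ctss, which such cells express strongly, was at most 0.356 CPM. The part of myeloid RNA in the levels of the 9 genes was not tested.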

How the data were processed

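The authors sequenced rRNA-depleted, random-primed libraries from 5 ng of total RNA with paired ends, aligned them with STAR 2.5.2b to GRCm38 and deposited RSEM output with expected counts, TPM and FPKM for each gene. The FPKM deposited by the authors were not used, and the effective lengths were read only as a check of TPM. The library chemistry marks strand. The sources do not state whether counting used strand or molecular identifiers. In beta cells the 3 IFNγ and control pairs with the same number deviated together (r = 0.22, 0.19 and 0.13 across genes). Pairs 1 and 2 also shared a date and pair 3 did not, so number and date cannot be told apart for pairs 1 and 2. No label pairs the samples. In alpha and delta cells not every pair deviated together. The study describes its n as independent samples. Expected counts were rounded and fitted in edgeR 4.0.16 (R 4.3.3): filterByExpr with a minimum count of 10, TMM, 1 fit of all 6 group means, quasi-likelihood F-tests and Benjamini-Hochberg adjustment over 17338 genes, with a threshold of 0.05. CPM were taken on TMM-scaled library sizes. Library totals were 6128845 to 11531734 expected counts, so Poisson intervals are at 95% and a count of 0 allows 3 counts. GENCODE M21 gave symbols for 99.38% of identifiers.

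The GC balance of a library is the median log2 deviation from the mean of all libraries for genes in the lowest quartile of GC content minus that for the highest. Within-date values and the likeness of genes used log2(CPM + 0.5), the latter over genes with a mean of at least 5 CPM. The members and the 8 gene lists were chosen with earlier results of these data known. Named genes were all members and, of each list, up to 3 called genes in each direction with the smallest adjusted p, the 3 genes most like each member, and readouts of the treatment and the sort. Alternatives were DESeq2 1.42.0, its size factors, no filter, a replicate block, date as a term, GC offsets (lowess span 0.3) alone or with the block, only 1 cell type, and leaving out each library in turn. Leaving out the 3 libraries that stood apart, and the comparisons between IFNγ-treated cell types, were chosen after seeing the data. The model was tested on simulated data.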

Additional observations from a re-analysis of the deposited data

How the results depend on the processing

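Of the values recomputed under the alternatives, 2671 kept their direction and their side of the threshold, 40 were no longer past it, 23 newly passed it and none reversed while called. Without the 3 libraries that stood apart, the number of the 8 genes past the threshold for IFNγ was 2 in alpha cells (Ctsz and Cst3), 1 in delta cells (Ctsd) and 2 in the average (Ctsd and Cst3), in place of 0, and between control delta and beta cells it was 3 in place of 5. Calls over all genes in alpha cells also rose strongly without alpha IFNγ 2 alone (above). The share of all genes past the threshold without the 3 libraries is not given, so these counts do not set the 8 apart. With date as a term only delta IFNγ 1 informed the comparisons of IFNγ-treated delta cells, the others being alone on their dates. Over beta cells Ifi30 was then at -2.40, Lgmn at 1.17 and Ctsd at -0.59, in place of -2.13, 1.01 and -0.84. Over alpha cells Lgmn was at 1.11 and Cst3 at -1.28, in place of 0.88 and -0.94. The cause of the changes without the 3 libraries was not tested. Leaving out 1 library at a time gave 0 to 1 genes for IFNγ in alpha cells and in the average, 3 to 6 between control delta and alpha cells and 3 to 5 between IFNγ-treated delta and alpha cells. The single libraries behind these ranges were alpha IFNγ 2 (Cst3 in alpha cells, and Ctsd in the average at -0.37, adjusted p = 0.0441), delta control 3 (Ctsl, Lgmn and Cst3 lost) and delta IFNγ 1 (Lgmn and Cst3 lost). Ctsd between control alpha and beta cells was not past the threshold without alpha control 3 (-0.57, adjusted p = 0.0854) or beta control 1 (-0.64, adjusted p = 0.0534).

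Over all groups, replicates with the same number hardly deviated together (mean r = 0.02 over 45 pairs, against -0.01 over 90 other pairs), while libraries of the same date did (mean r = 0.18 over 18 pairs, against -0.03 over 117 others). In alpha cells (r = 0.09, 0.05 and -0.19) and delta cells (-0.05, 0.20 and 0.28) the IFNγ and control samples share only a number, and in beta cells, where all 3 pairs were over 0.1, the replicate block changed no call of the 8. The replicate block left the IFNγ counts at 0 and added Ctsd to the calls between control delta and alpha cells (0.50, adjusted p = 0.0486), which made 7 in place of 6. Over all genes DESeq2 called 394 higher and 141 lower for IFNγ in alpha cells, against 163 and 6 in edgeR, 298 and 97 in delta cells, against 209 and 32, and 536 and 313 in the average, against 388 and 116. Depth limits Ctss most, with 13 counts in all.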

Other observations

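In IFNγ-treated cells the listed lysosomal genes were mostly lower in alpha than in beta cells. Of 32 tested soluble hydrolases 20 were lower and 1 was higher (median log2 difference -0.90), and of 17 membrane proteins 10 were lower and 1 was higher, with 27.1% of all genes called in either direction. Sorl1 was at 22.1 ± 9.60 CPM in treated alpha cells against 146 ± 13.9 CPM in treated beta cells (SD, n = 3 each). By direction, 13.3% of all genes were lower and 13.8% higher. In treated delta against beta cells 15 of 32 hydrolases were lower and 1 higher, beside 18% and 18.4% of all genes, and Scpep1 was at 16.9 ± 1.08 CPM against 63.2 ± 5.01 CPM. Dnase2a was higher in treated delta cells, at 20.3 ± 4.26 against 6.37 ± 0.958 CPM in treated beta cells.

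Levels of MHC class II genes differed between treated cell types. Of 7 tested, 6 were higher in delta than in beta cells (18.4% of all genes) and 6 higher in delta than in alpha cells (8.88%). Cd74 had 184, 305 and 229 CPM in treated delta libraries against 34.6, 56.8 and 58.1 CPM in treated beta libraries, with no overlap (log2 difference 2.26, SE 0.36, adjusted p = 0.000108 in edgeR). Controls averaged 0.676 CPM in delta and 0.0982 CPM in beta cells. The test of the response called 0 of the 7 for delta minus beta cells (median log2 -0.10) and for delta minus alpha cells (1.56). Treated delta and beta libraries shared no date, and their GC balances were 0.43 to 0.86 and -0.66 to -0.37.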
